A study of Bos taurus with 16 samples.

Results

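The mitochondrial ribosomal protein genes were taken as every array feature whose symbol starts with MRPL or MRPS followed by a digit. These were 76 of the 20011 gene symbols on the array, 47 of the large subunit (MRPL) and 29 of the small subunit (MRPS), and each was measured by 1 of the 20421 transcript clusters, the sets of probes that are summarised into 1 signal. Liver biopsies had been taken from multiparous Holstein cows at week 1 postpartum, and all cows received the same total mixed ration. From a larger group of cows without medical treatment, the authors had assigned the 8 with the highest hepatic *FGF21* expression to the *FGF21* high group and the 8 with the lowest to the *FGF21* low group. *FGF21* encodes a hormone that the liver secretes in negative energy balance and under other stresses. The paper reports no difference between these groups in energy balance or in plasma non-esterified fatty acids in early lactation. No cow was treated or genetically altered, so the groups are the ends of a natural range at a single time point, chosen by the expression of 1 gene. The *FGF21* signal, which chose the groups, lay between 6.16 and 8.69 on the log2 scale in the high group and between 4.78 and 5.51 in the low group.

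The mitochondrial ribosome makes the few proteins that the mitochondrial genome encodes, which are core subunits of the respiratory chain and of ATP synthase. Its RNA comes from mitochondrial DNA, whereas all of its proteins are encoded in the nucleus, made in the cytosol and imported. The small subunit binds the messenger RNA and decodes it, and the large subunit joins the amino acids and is held at the inner membrane, into which the products are inserted. Part of its proteins have counterparts in bacterial ribosomes and the others were added in the mitochondrial line. The liver is rich in mitochondria, and in the first week of lactation it oxidises large amounts of fatty acids.

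The biopsies carried the markers of liver. Albumin was among the brightest genes on every array, with log2 signals from 13.6 to 13.7. Of the cell type markers, 7 of 7 endothelial and 8 of 8 Kupffer cell markers had positive log2 fold changes in the *FGF21* high group. Among them 2 endothelial and 1 Kupffer cell marker had an unadjusted limma p under 0.05. Positive values were found for 0 of 7 hepatocyte and 0 of 8 stellate cell markers, with 2 hepatocyte markers lower at that threshold. The other lists were mixed, with 5 of 8 lymphocyte (1 higher at that threshold), 3 of 5 cholangiocyte and 4 of 8 erythrocyte and neutrophil markers positive. Of all clusters, 43.4% were positive, and 2.89% were higher and 4.52% lower at that threshold. The mean deviation of the hepatocyte markers ranged from -0.13 to 0.060 in the high group and from -0.035 to 0.12 in the low group, and that of the Kupffer cell markers from -0.26 to 0.36 and from -0.31 to 0.12. In bulk tissue, fewer cells of a type and less RNA per cell cannot be told apart, and the part of these markers in the values below was not tested.

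No mitochondrial ribosomal protein gene passed the test of a difference between the groups. At an unadjusted limma p under 0.05, 0 of 76 genes were higher and 0 of 76 were lower in the *FGF21* high group, against 2.89% and 4.52% of all 20421 clusters. After Benjamini-Hochberg adjustment over all clusters, 0 of 76 passed 0.05 in the limma fit, and the smallest adjusted p among them was 0.709, whereas 0.0294% of all clusters passed. The highest and lowest signals of the groups overlapped for all 76 genes, against 0.0539% of all clusters in which they did not. By a two-sided exact permutation test, which ran through all 12870 ways to assign the cows, 1 of 76 genes, *MRPL41*, had an unadjusted p under 0.05, against 7.26% of all clusters.

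The differences were small and mostly below 0. Fold changes on the log2 scale (high minus low) ran from -0.13 for *MRPL37* to 0.12 for *MRPS23*, and no gene exceeded the 1.2-fold change that the study used as its threshold. They were positive for 26 genes and negative for 50, so that 34.2% were positive against 43.4% of all clusters. The median was -0.026 over the 76 genes and -0.017 over all clusters. Arrays centred on their own medians left 32 genes positive, without cow 2 of the low group 38 were positive with a median of 0.0022, and without both that cow and cow 1 of the high group 32 were positive with a median of -0.023. With the labels' running number added to the model as a covariate, 16 were positive with a median of -0.069.

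Each 95% confidence interval bounds, for 1 gene at a time and on the scale of the array signal, what the comparison could have missed. Changes in RNA can be larger than on that scale: for *FGF21* the paper reports a larger fold difference by qPCR than by array. For all 76 genes the interval lay inside a 1.5-fold change in either direction, and for 54 of them it lay inside a 1.2-fold change, as it did for 9840 of the 20421 clusters. The farthest upper limit was 1.27-fold, for *MRPS24*, and the farthest lower limit was a ratio of 0.780, for *MRPS12*. In simulated data of the same size and spread, limma at an unadjusted p under 0.05 recovered 68% of the clusters changed 1.2-fold and 97% of those changed 1.5-fold. After adjustment it recovered 11% and 83%, so the count of 0 at the adjusted threshold says little about changes near 1.2-fold. These adjusted shares depend on the 200 clusters changed in the simulation and on its independent noise. In the real data only 6 of 20421 clusters passed, so recovery there can be lower, also at 1.5-fold.

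**Figure D1:**
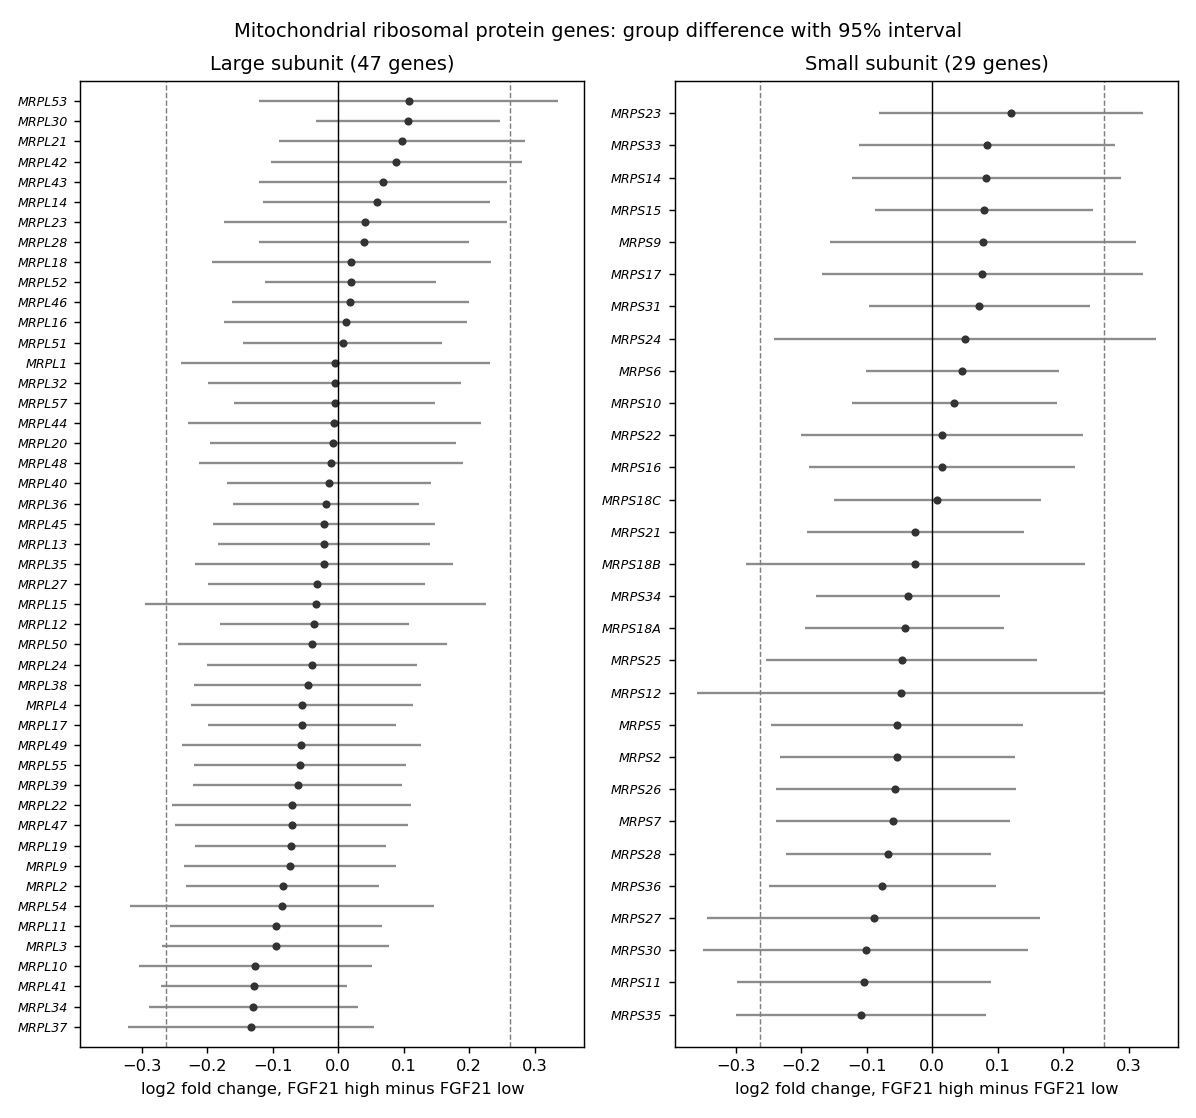
Log2 fold change of each mitochondrial ribosomal protein gene (points, *FGF21* high minus *FGF21* low, 8 cows each) with its 95% confidence interval from limma (lines), for the large subunit on the left and the small subunit on the right. Dashed lines mark a 1.2-fold change in either direction. Every interval crosses 0, and 54 of 76 lie between the dashed lines.

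Grouped by symbol, both subunits had medians close to that of all clusters. Of the 47 large-subunit genes, 13 had positive and 34 negative log2 fold changes, with a median of -0.022. Of the 29 small-subunit genes, 13 were positive and 16 negative, with a median of -0.026. The interval lay inside a 1.2-fold change for 37 of the 47 large-subunit genes and for 17 of the 29 small-subunit genes, whose median standard deviation (SD) between cows within groups was larger, 0.19 against 0.16. When proteins were placed by where they sit in the known structure and subunits with other symbols were added, the medians were -0.033 for the large and 0.011 for the small subunit. The planned comparison went by symbol, and the gap between the subunits under this other placement was not tested.

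Among the large-subunit genes, the most negative were *MRPL37*, *MRPL34*, *MRPL41* and *MRPL10*. *MRPL41*, which is specific to mitochondria, had the smallest limma p of all 76. Its log2 signal ran from 7.70 over a median of 8.04 to 8.14 in the high group and from 8.05 over 8.11 to 8.30 in the low group. Cow 5 of the high group lay below all others, 7 of 8 cows of the high group lay below the mean of the low group, and the ranges overlapped between 8.05 and 8.14. The log2 fold change was -0.13 ± 0.068 (SE), with a limma p of 0.0726 (adjusted 0.709) and an exact permutation p of 0.0208. Under the methods' t-test, and under its form for unequal spreads, it was the 1 member lower at an unadjusted 0.05, as were 4.38% and 4.18% of all clusters.

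*MRPL34*, the counterpart of bacterial L34, ran from 7.39 over 7.66 to 7.95 in the high group and from 7.66 over 7.77 to 8.07 in the low group. The highest value of each group came from the same cows that stood high in most of the genes, cow 1 of the high and cow 2 of the low group. Its log2 fold change was -0.13 ± 0.076 (limma p 0.106, exact permutation p 0.0911). *MRPL37*, a mitochondria-specific protein, ran from 7.84 to 8.29 and from 7.92 to 8.63 around medians of 7.99 and 8.08, with -0.13 ± 0.090 for the log2 fold change and 0.161 for the exact permutation p.

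At the other end of the large subunit stood *MRPL53*, *MRPL30*, *MRPL21* and *MRPL42*. *MRPL30*, the counterpart of bacterial L30, ran from 6.25 over 6.45 to 6.65 in the high group and from 6.24 over 6.37 to 6.45 in the low group. The lowest cows of both groups were alike, and the 4 highest values all belonged to cows of the high group. The log2 fold change was 0.11 ± 0.067 (limma p 0.128, exact permutation p 0.0777). *MRPL53*, a mitochondria-specific protein of the stalk region, had a log2 fold change of 0.11 ± 0.11 and ran from 6.31 to 7.17 in the high group and from 6.43 to 7.12 in the low group, so the range of the high group took in the whole of the other. *MRPL21* and *MRPL42* had log2 fold changes of 0.097 ± 0.090 and 0.089 ± 0.092.

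The stalk is the part of the large subunit that recruits the translation factors. Its 3 classical members are *MRPL10*, the base, *MRPL12*, which binds the factors, and *MRPL11* beside them. *MRPL10* ran from 6.94 over 7.13 to 7.47 in the high group and from 7.13 over 7.24 to 7.62 in the low group, and its log2 fold change was -0.13 ± 0.085 (exact permutation p 0.155). *MRPL11* and *MRPL12* had log2 fold changes of -0.095 ± 0.078 and -0.036 ± 0.069. Over the 5 stalk genes, with *MRPL53* and *MRPL54*, the median was -0.085. Over the 8 genes of the tunnel exit, where the new protein leaves, it was -0.048, and over the 7 of the central protuberance, which faces the small subunit, it was -0.011. *MRPL45*, which ties the tunnel exit to the inner membrane, had a log2 fold change of -0.022 ± 0.081. These sites were grouped after the values were seen, and none of their genes passed the test.

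Among the small-subunit genes, *MRPS23* had the most positive log2 fold change, 0.12 ± 0.097 (limma p 0.228, exact permutation p 0.243). This mitochondria-specific protein ran from 7.75 over 8.15 to 8.38 in the high group and from 7.83 over 7.96 to 8.35 in the low group. Cow 5 of the high group was the lowest of all, and the other 7 cows of that group lay above the mean of the low group. *MRPS33*, *MRPS14* and *MRPS15* followed with log2 fold changes of 0.084, 0.083 and 0.079. The most negative were *MRPS35*, *MRPS11*, *MRPS30* and *MRPS27*, from -0.11 for *MRPS35* to -0.090 for *MRPS27*, with standard errors from 0.091 to 0.12. All members of either subunit that are not named here lay between the log2 fold changes of *MRPL3* (-0.095) and *MRPS9* (0.077).

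**Figure D2:**
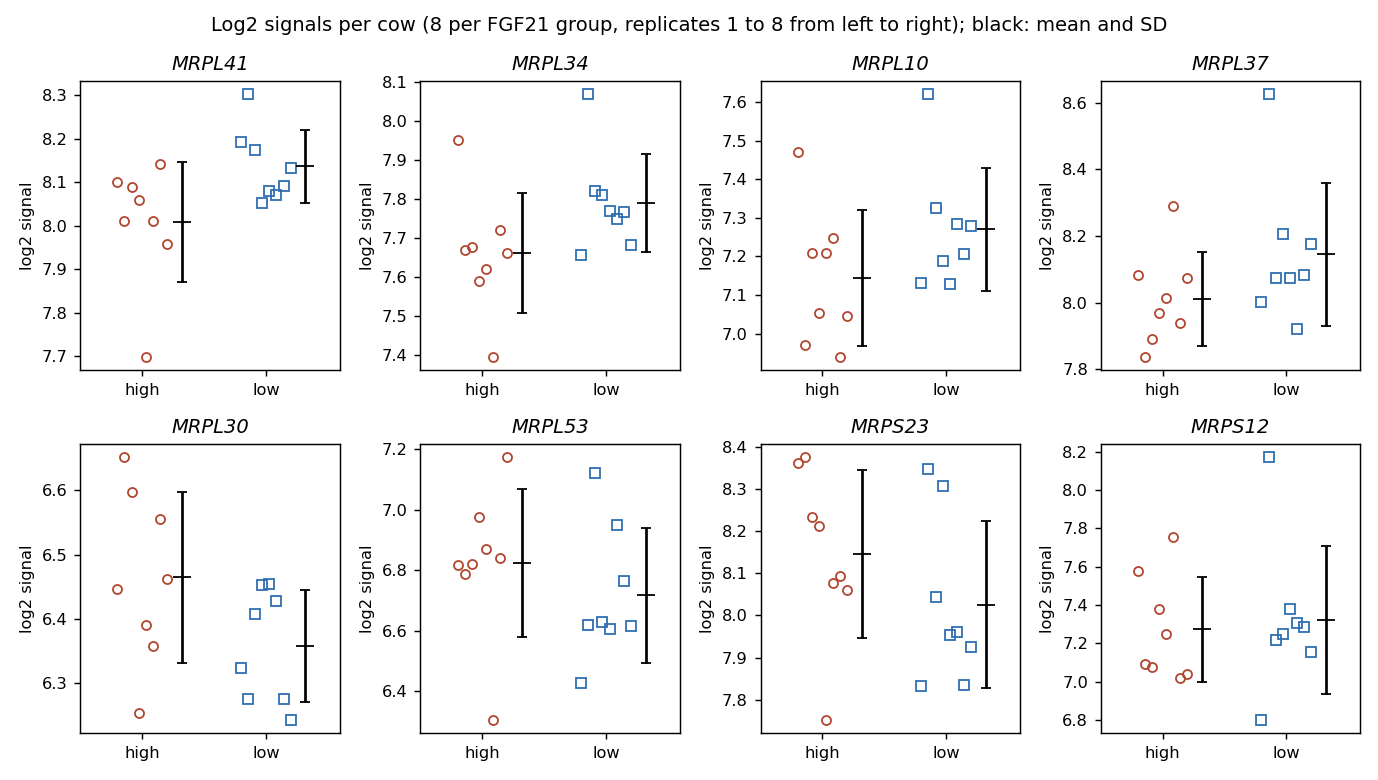
Log2 signal of 8 mitochondrial ribosomal protein genes in each cow, circles for the *FGF21* high and squares for the *FGF21* low group, with the mean and SD in black; vertical axes differ and do not start at 0. The groups overlap in every panel, and cow 2 of the low group is the highest of its group for *MRPL41*, *MRPL34*, *MRPL10*, *MRPL37*, *MRPS23* and *MRPS12*.

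Several proteins with MRPS symbols are not, or not only, small-subunit proteins. The 3 *MRPS18* genes encode relatives of bacterial S18, of which *MRPS18A* sits in the large subunit. They had log2 fold changes of -0.042 ± 0.073 for *MRPS18A*, -0.026 ± 0.12 for *MRPS18B* and 0.0077 ± 0.076 for *MRPS18C*. *MRPS30*, which also sits in the large subunit, ran from 7.68 over 7.78 to 8.42 in the high group and from 7.77 over 7.91 to 8.43 in the low group, with a log2 fold change of -0.10 ± 0.12. *MRPS36*, now known as a part of the 2-oxoglutarate dehydrogenase complex, had a log2 fold change of -0.076 ± 0.083 and an interval from -0.25 to 0.097. Genes with a bacterial counterpart (46) had a median of -0.026 and mitochondria-specific genes (30) one of -0.029, a grouping also made after the values were seen.

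Of the 6 ribosomal proteins that carry other symbols on the array, 0 passed an unadjusted limma p under 0.05. *DAP3*, a GTP-binding protein of the small subunit, had a log2 fold change of 0.014 ± 0.071, and *GADD45GIP1*, a protein of the large subunit, -0.11 ± 0.073. A further cluster annotated as large-subunit protein L33 but named only by a locus number ran from 7.04 to 7.41 in the high group and from 6.86 to 7.40 in the low group, with a log2 fold change of 0.064 ± 0.081.

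Signals of the members varied from cow to cow within both groups. For each cow the deviation of each gene from its own mean over the 16 cows was averaged over the 76 genes. This mean deviation ran from -0.096 to 0.18 in the high group and from -0.13 to 0.24 in the low group, with means of -0.0090 ± 0.089 and 0.0090 ± 0.12 (SD, n = 8 each). Cow 1 of the high group stood at 0.18, with 71 of 76 genes above their own mean, and cow 2 of the low group at 0.24, with 67 of 76 above it. Cow 2 of the low group had the highest signal of all 16 cows for 39 genes and cow 1 of the high group for 14. The lowest were cow 1 of the low group at -0.13, with 60 genes below their mean, cow 7 of the low group at -0.12 and cow 5 of the high group at -0.096.

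The median signals of these arrays lay at opposite ends of the series, at 6.25 for cow 1 of the high group and at 6.34 for cow 2 of the low group. With every array centred on its median their mean deviations stood at 0.21 and 0.18, and after a further quantile normalization at 0.13 and 0.12. Cow 1 of the high group also had the highest *FGF21* signal, 8.69, whereas cow 2 of the low group, at 5.41, lay within its group.

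**Figure D3:**
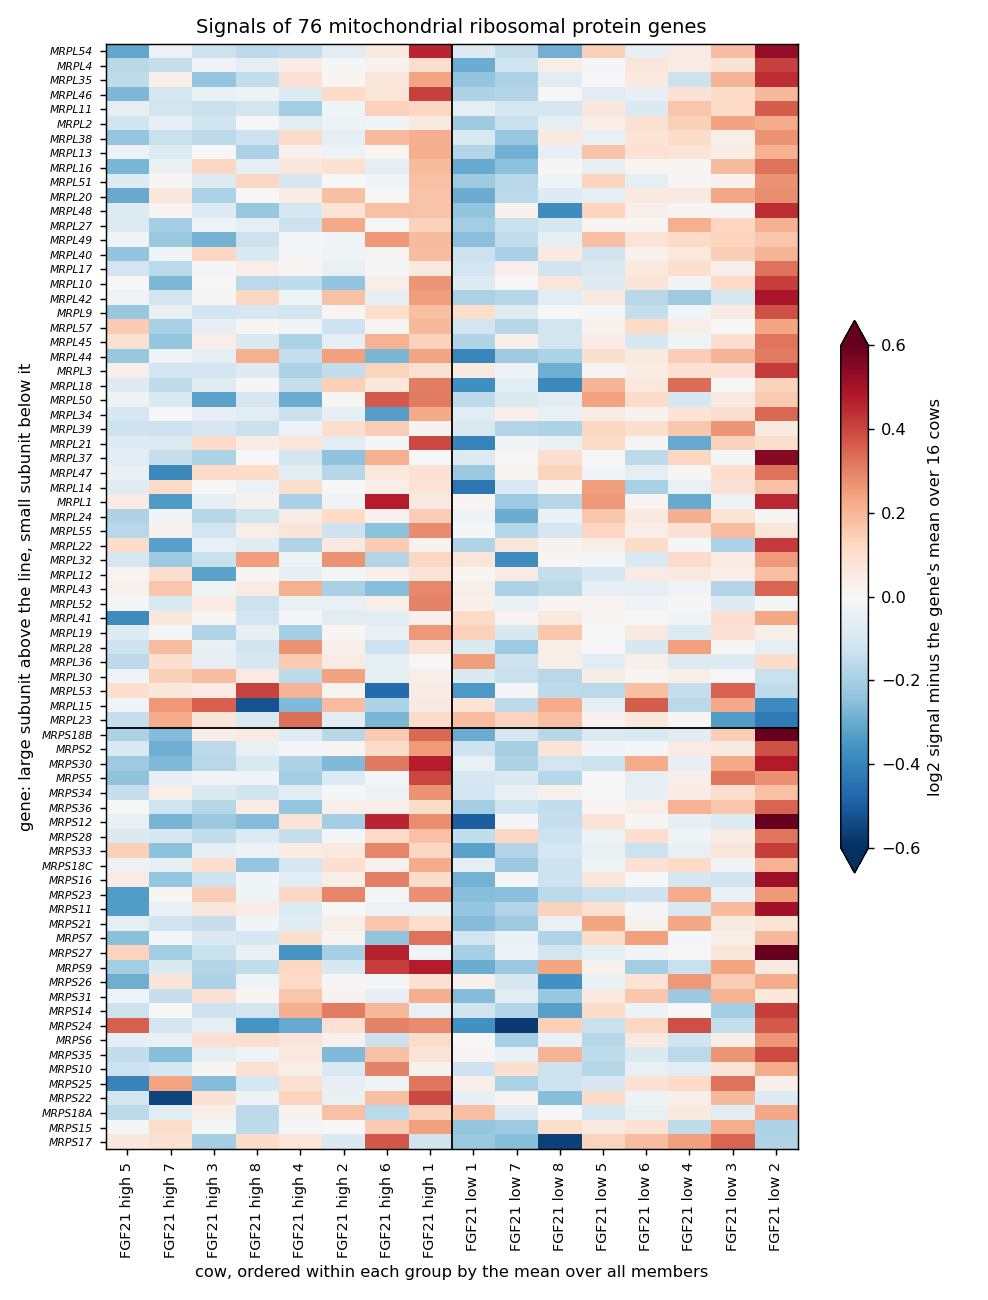
Deviation of each log2 signal from the mean of its gene over the 16 cows, for 47 large-subunit genes above the horizontal line and 29 small-subunit genes below it, sorted by their correlation with the remaining members. Cows are ordered within each group by their mean deviation, and colours are capped at 0.6 in either direction. Cow 1 of the high group and cow 2 of the low group are red in most rows, while *MRPL15* and *MRPL23* at the foot of the large subunit run against the others.

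Both subunits moved together from cow to cow. With group means removed, the mean deviations of the large and the small subunit correlated with r = 0.954 (Spearman's rho = 0.918, 16 cows), r = 0.891 without cow 1 of the high and cow 2 of the low group, and r = 0.895 and 0.987 within the high and the low group. The points share the array, its normalization and the cow, so this is a description without a test. The widest gap was that of cow 6 of the high group, with 0.0085 for the large and 0.13 for the small subunit. The large-minus-small gap ran from -0.12 to 0.048 in the high group and from -0.070 to 0.048 in the low group, so the range of the high group took in the whole of the other.

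Most single genes followed the other subunit. Against the mean deviation of the small subunit, 34 of 47 large-subunit genes (72.3%) had r above 0.5, and against that of the large subunit 23 of 29 small-subunit genes (79.3%) did. Of the 20345 clusters that are no members, 14.9% and 14.1% did. The median r was 0.66 and 0.67 for the members and 0.044 and 0.052 for the other clusters. Between pairs of members the median r was 0.41 over 2850 pairs and 0.22 without cow 1 of the high and cow 2 of the low group.

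*MRPL54*, a mitochondria-specific protein of the stalk region, lay closest to the mean of the other members, with r = 0.905 over the 16 cows. It ran from 6.89 over 7.10 to 7.66 in the high group and from 6.91 over 7.20 to 7.73 in the low group, with cow 1 and cow 2 at the top. *MRPS18B* followed with r = 0.883, *MRPL4* with 0.880, *MRPL35* with 0.879 and *MRPS2*, the counterpart of bacterial S2, with 0.876. In all, 59 of 76 genes had r above 0.5 with the mean of the other members.

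In 4 genes r was below 0. *MRPL23*, the counterpart of bacterial L23 at the tunnel exit, had r = -0.596. Its signals ran from 8.09 to 8.69 in the high group and from 7.94 to 8.55 in the low group, and its lowest value of all belonged to cow 2 of the low group, the cow in which the others were highest. *MRPL15* (r = -0.252) was the dimmest member, with a mean log2 signal of 3.53 against a median of 6.28 over all clusters. *MRPL53* (-0.050) and *MRPL30* (-0.001) lay close to 0.

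Of these genes, *MRPL30* had 30 probes and the others few. The 6 members with fewer than 12 probes had a median r of 0.081 with the mean of the other members (range -0.60 to 0.75) and a median SD within groups of 0.24, whereas the 70 with 12 or more had a median r of 0.68 (range -0.0014 to 0.91) and an SD of 0.17. *MRPL23* had 8 probes, *MRPS24* 8, *MRPL53* 9 and *MRPL15* 11. The array also carries clusters annotated as copies of *MRPL23*, *MRPS17*, *MRPS24* and *MRPL17*. Their r with the gene of the same name was -0.15, 0.45, 0.047 and 0.25, and values of these 4 members are uncertain where probes match both copies. Whether the number of probes accounts for the low correlations was not tested.

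The most variable member was *MRPS12*, the counterpart of bacterial S12 at the decoding site, with an SD within groups of 0.33. It ran from 7.02 over 7.17 to 7.76 in the high group and from 6.80 over 7.27 to 8.17 in the low group, where cow 1 was the lowest and cow 2 the highest of all. *MRPS24* (0.31), *MRPL15* (0.27) and *MRPS18B* (0.27) followed. The least variable were *MRPL52* (0.097), *MRPL30*, *MRPS34* and *MRPL41* (0.11 each). For *MRPL52* the low group spanned only 7.11 to 7.22, and the high group 7.06 to 7.49, with cow 1 at the top.

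Other mitochondrial genes moved with the members from cow to cow, but this was not particular to mitochondrial genes. The cluster outside the members that lay closest to their mean deviation was *RARS*, a cytosolic tRNA synthetase (r = 0.955). With group means removed, the mean deviation of the 76 genes correlated with that of 15 mitochondrial translation factors (r = 0.900, 0.836 without the 2 cows), of 78 subunits of the respiratory chain and ATP synthase (0.887 and 0.829) and of 23 assembly and rRNA modification factors (0.839 and 0.677). For 71 cytosolic ribosomal proteins r was 0.530 (0.568 without the 2 cows). For the lists of cell markers it ran from -0.39 to 0.25 (-0.41 to 0.23 without the 2 cows). For the running number in the labels it was -0.44 (-0.12 without the 2 cows) and for the SD of the array's signals 0.58 (0.58). For the median signal of the array it was -0.0084, but -0.51 without the 2 cows, and -0.59 within the high and 0.39 within the low group. These are 16 cows, and 19 such relations were computed.

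**Figure D4:**
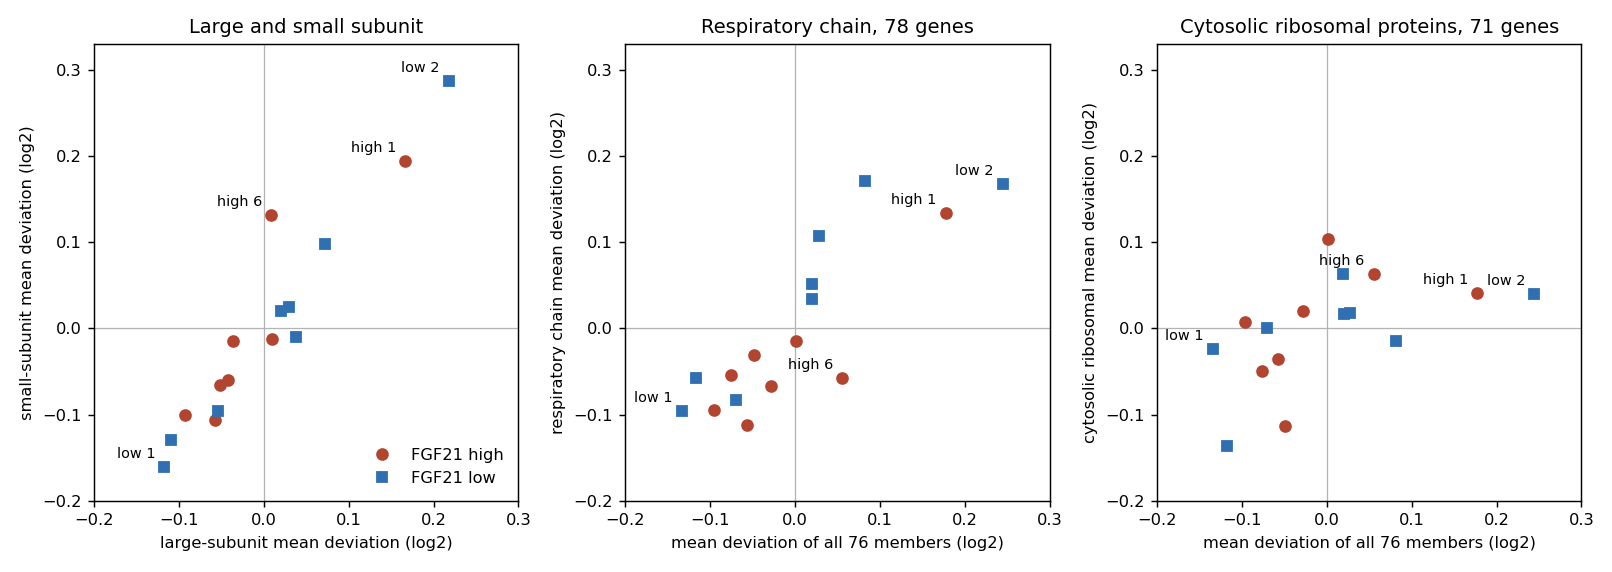
Mean deviation per cow (log2 scale), circles for the *FGF21* high and squares for the *FGF21* low group: small against large subunit on the left, and respiratory chain subunits and cytosolic ribosomal proteins against all 76 members in the middle and on the right. Cow 1 of the high and cow 2 of the low group lie at the upper right in the first and the middle panel, and the cytosolic ribosomal proteins show a looser relation.

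Between the groups, the respiratory chain list had a lower median than the members, a difference that was not tested. Its log2 fold changes were negative for 70 of 78 genes with a median of -0.076, and 0 of 78 were higher and 3 of 78 (3.85%) lower at an unadjusted limma p under 0.05, against 2.89% and 4.52% of all clusters. An alternative chosen after the data were seen took the respiratory chain deviation of each cow as a covariate. In it 60 of the 76 members had positive log2 fold changes, and the median over the 76 was 0.059. Only *MRPS23* passed an unadjusted p under 0.05 (log2 fold change 0.24, limma p 0.0125), where 11.2% of all clusters did. This covariate was itself lower in the high group (mean deviation -0.037 against 0.037) and rose with the members from cow to cow (r = 0.887). Adding it therefore moves the members' log2 fold changes upward by construction, and no conclusion is drawn from their signs. The cytosolic ribosomal proteins had a median of 0.0014, with 36 of 71 genes positive.

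Among the 23 assembly and rRNA modification factors, 1 was higher and 1 lower at an unadjusted limma p under 0.05, near the 2.89% and 4.52% of all clusters, and 0 passed after adjustment. *NGRN*, needed for the RNA of the large subunit, had a log2 fold change of 0.19 ± 0.070 (limma p 0.0146, adjusted 0.572, exact permutation p 0.0101). It ran from 7.09 over 7.38 to 7.58 in the high group and from 7.07 over 7.16 to 7.35 in the low group. *MALSU1*, which keeps the unfinished large subunit from joining the small one, had a log2 fold change of -0.28 ± 0.13 (limma p 0.0453, adjusted 0.667, exact permutation p 0.0741), and all 8 cows of the high group lay below the mean of the low group. Neither passed the adjusted threshold.

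None of the 15 translation factors passed an unadjusted limma p under 0.05. *TUFM*, the elongation factor that brings the transfer RNAs, had a log2 fold change of -0.14 ± 0.097, *GFM1*, which moves the ribosome along the messenger, -0.031 ± 0.093, and *MTRF1*, a release factor, 0.16 ± 0.080 (limma p 0.0627). *TACO1*, a translational activator of a cytochrome c oxidase subunit, had a log2 fold change of -0.087 ± 0.055, with a limma p of 0.127 and an exact permutation p of 0.0169. None of the 8 genes for transcription and replication of mitochondrial DNA passed either, and *TFAM*, the packaging and transcription factor of that DNA, had a log2 fold change of 0.059 ± 0.066.

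Of 8 regulators of mitochondrial biogenesis, 1 was higher and 2 were lower at an unadjusted limma p under 0.05. Of all clusters, 2.89% were higher and 4.52% lower at that threshold, and 7.26% had an unadjusted exact permutation p under 0.05. *PPARGC1A*, a coactivator that drives mitochondrial biogenesis and the fasting response of the liver, ran from 8.58 over 8.91 to 9.17 in the high group and from 8.89 over 9.24 to 10.42 in the low group. All 8 cows of the high group lay below the mean of the low group, although the ranges overlapped. The log2 fold change was -0.51 ± 0.17 (limma p 0.00655, adjusted 0.512, exact permutation p 0.00777). *MYC*, a transcription factor of growth, had a log2 fold change of -0.34 ± 0.14 (limma p 0.0247, exact permutation p 0.0486) and *PPRC1*, a relative of *PPARGC1A*, 0.23 ± 0.11 (limma p 0.0489, exact permutation p 0.0692). *NRF1* and *GABPA*, transcription factors known to act on many mitochondrial genes, had log2 fold changes of 0.078 ± 0.059 and -0.040 ± 0.082. None of these passed the adjusted threshold in limma.

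The members lie scattered over 27 chromosomes in the coordinates of the array's annotation, of a genome build not given in the sources used here, with at most 8 on one chromosome (chromosome 11). The closest pair of members is *MRPL46* and *MRPS11*, back to back on chromosome 21 with 109 bases between them, at chr21:19858317-19867590 on the minus strand and chr21:19867700-19898711 on the plus strand. With group means removed their signals correlated with r = 0.601 over the 16 cows, and their log2 fold changes were 0.019 ± 0.087 and -0.10 ± 0.093.

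In 22 pairs a member starts within 1000 bases of the start of a gene on the other strand, an arrangement in which both can share a promoter. Their r over the 16 cows had a median of 0.31 and ran from -0.45 to 0.85, with 4 of 22 above 0.5. The highest was that of *MRPS12* with *SARS2*, which encodes the mitochondrial seryl-tRNA synthetase and starts 199 bases away (r = 0.855). For *MRPS12*, cow 2 of the low group stood apart at 8.17, with the others of its group up to 7.38. The r values of the 22 pairs were not computed without this cow and cow 1 of the high group. No share above 0.5 was computed for pairs of other genes. *MRPL47* and *NDUFB5*, a subunit of complex I, start 132 bases apart, with r = 0.680, yet *NDUFB5* had a log2 fold change of -0.22 ± 0.091 (limma p 0.0258, adjusted 0.629) and *MRPL47* of -0.071. Of the partners, *NDUFB5* and *TCP1*, a chaperonin subunit next to *MRPL18* (log2 fold change 0.22, limma p 0.00942), had an unadjusted p under 0.05. These are 2 partners in 22 pairs, near the 7.42% of all clusters with such a limma p in either direction. The lowest r was that of *MRPL10* with *LRRC46* (r = -0.448).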

How the data were processed

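Hepatic RNA of 16 cows, 8 per group, was measured on 1 Affymetrix whole-transcript array per cow; groups came from the sample labels. The deposited log2 signals were made by the authors' service provider with Affymetrix Expression Console 1.4 (RMA with a signal space transformation: background correction, quantile normalization, probe summary). Columns of the authors' own comparison beside them (means, fold changes, p-values) were left unused. The number of arrays limits the precision. The paper also reports signs of RNA degradation, which it says can limit the sensitivity and specificity of microarrays, although it judged the RNA sufficient. The RNA integrity of single cows was not part of the fits, and its part in the values was not tested. Array coordinates are of a genome build not given in the sources used here.

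All 20421 clusters were fitted without a filter in R 4.3.3 by limma 3.58.1 (functions lmFit and eBayes with group as the only term), tested on simulated data with 200 changed clusters, and adjusted by the Benjamini-Hochberg method. Exact permutation tests (two-sided, smallest possible p 0.000155), correlations and figures were run in Python 3.11.15 with matplotlib 3.10.9, scipy 1.17.1, pandas 2.3.3 and numpy 2.4.6. Of the members, 73 accessions and 76 symbols matched RefSeq. Replicate numbers do not pair cows: deviations of same-numbered cows correlated from -0.21 to 0.13. Members and lists were chosen with earlier results of these data known. Members named were the 4 most positive and 4 most negative per subunit, the 4 most and least variable, the stalk genes *MRPL10*, *MRPL11* and *MRPL12*, *MRPL45*, the *MRPS18* genes and *MRPS36*; others named (*MRPL23*, *MRPL54*, *MRPL4*, *MRPL35*, *MRPS2*, *MRPL46*, *MRPL47*) were chosen after their values were seen, for their correlation or position. Alternatives were other tests, normalizations, a signal filter, covariates and leaving out cows.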

Additional observations from a re-analysis of the deposited data

Results flagged for a closer look

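Within groups of 8 cows, the highest or lowest cow was set against its nearest neighbour by Dixon's ratio for 32 items (the named genes and the mean deviations), 64 groups in all. In 16 of them the ratio passed the 95% critical value, where chance gives about 1 in 20 for independent items. That rate does not apply here, because part of the genes were named for extreme values or spread, the genes move together from cow to cow, and 11 of the 16 values belong to cow 2 of the low and cow 1 of the high group. No cause of these values was tested.

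Cow 2 of the low group stood above the other 7 for *MRPL37* (8.63, others 7.92 to 8.21), *MRPL34* (8.07, others up to 7.82), *MRPL10* (7.62, others up to 7.33), *MRPL42* (8.39, others up to 7.96), *MRPS27* (7.92, others up to 7.28), *MRPS18B* (9.09, others up to 8.47) and *MRPS12* (8.17, others up to 7.38). Its array had the lowest weight in limma's array weights, 0.515.

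Cow 1 of the high group stood above the others of its group for *MRPL21* (8.20, others up to 7.92), *MRPL52* (7.49, others up to 7.24), *MRPS34* (7.95, others up to 7.71) and the mean deviation of the large subunit (0.17, others -0.093 to 0.0096). It also had the highest *FGF21* signal of all cows.

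Cows 3, 5 and 6 of the high group stood low. Cow 5 did for *MRPL41* (7.70, others 7.96 to 8.14) and *MRPS11* (6.93, others 7.18 to 7.33). Cow 3 did for *MRPL12* (6.87, others 7.14 to 7.29). Cow 6 did for *MRPL53* (6.31, others 6.79 to 7.17) and for the large-minus-small gap (-0.12, others -0.028 to 0.048).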

How the results depend on the processing

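The count of members past an adjusted p of 0.05 was 0 in every alternative run. At an unadjusted p under 0.05 the count of lower members was 1 by the methods' t-test and by Welch's test (*MRPL41*), 2 with the running number as a covariate (*MRPL34* and *MRPL41*) and 0 to 2 with single cows left out (2 without cow 1 of the high group, 1 without cow 7); that of higher members was 0 to 1 with single cows left out (*MRPL42* without cow 2 of the low group) and 1 with the respiratory chain covariate. Of all clusters, 6.62% passed in either direction with the running number, 6.32% without cow 1 and 9.56% without cow 7 of the high group, 8.12% without cow 2 of the low group and 11.2% with the respiratory chain covariate, so each of these counts lay below the share of all clusters. With the replicate block 0 members passed in either direction. Leaving out single cows moved the median from -0.054 to -0.0040 for the large and from -0.065 to 0.0054 for the small subunit, and the running number covariate moved it to -0.069 and -0.072. Left out together, after the data were seen, cow 1 of the high and cow 2 of the low group changed no count.

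Log2 fold changes of some members turned sign. With array weights *MRPS18B* did (0.017), and with the running number *MRPL52* (-0.016), *MRPS24* (-0.0057) and *MRPS18C* (-0.066). Without both cows *MRPS27* (0.0014), *MRPL52* (-0.022), *MRPS18B* (0.030), *MRPS12* (0.031) and *MRPL45* (0.0014) did, and with the respiratory chain covariate, also chosen after the data were seen, *MRPS30* (0.050), *MRPS27* (0.0071), *MRPS34* (0.039), *MRPS18B* (0.14), *MRPS12* (0.11), *MRPL12* (0.018), *MRPL45* (0.047) and *MRPS36* (0.040). With single cows left out, *MRPL12* ran from -0.059 to 0.0073, *MRPL15* from -0.091 to 0.038, *MRPL45* from -0.053 to 0.023, *MRPL52* from -0.022 to 0.039, *MRPS12* from -0.12 to 0.074, *MRPS18B* from -0.077 to 0.081, *MRPS18C* from -0.024 to 0.041, *MRPS24* from -0.029 to 0.11 and *MRPS27* from -0.16 to 0.0054. With the respiratory chain covariate an upward shift is built into the fit, and the cause of the other turns was not tested. Using every cluster of a symbol gave no other value, since each member had 1 cluster. Members dimmer than the median of all clusters (*MRPL15*, *MRPL39*, *MRPS17*, *MRPS24*) had the least signal over background, and a filter on it left 72.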

Other observations

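Outside the lists, the clusters closest to the mean deviation of the members over the 16 cows, with group means removed, were picked after their values were seen. They were *RARS*, the cytosolic arginyl-tRNA synthetase (r = 0.955), *MICU2*, a regulator of calcium uptake into mitochondria (0.946), *HSPA9*, the import chaperone of the mitochondrial matrix (0.934), *C1QBP*, a matrix protein (0.928), *DNM2*, dynamin 2 (0.922), *TARS2*, the mitochondrial threonyl-tRNA synthetase (0.922), and *CCT7*, a subunit of the cytosolic chaperonin (0.917). None of these 7 had an unadjusted limma p under 0.05 between the groups, and their log2 fold changes ran from -0.098 for *MICU2* to 0.070 for *DNM2*.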
